A study of Mus musculus with 31 samples.

Results

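Cytosolic ribosomal protein genes were examined in the basolateral amygdala (BLA) of mice that overexpress CYFIP1 and of their wild-type littermates. They were taken as protein-coding genes whose symbol in the GENCODE annotation of GRCm38 is Rpl or Rps followed by a number, a, p0, p1 or p2, with at most 1 further letter a, x, l or y. Of 48709 genes in the deposited tables, 80 met this rule, and 76 of them reached 10 reads in 7 or more of the 31 mice and were analysed among 17428 genes that passed the same filter. The 76 members comprise 46 genes of the large and 30 of the small ribosomal subunit. The rule misses genes with other symbols, such as Rps3a1, Fau and Rack1, and these were followed as a separate list.

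The CYFIP1 OE mice carry a human CYFIP1 BAC, introduced by pronuclear injection on a C57BL/6N background. RNA was read by QuantSeq, which sequences the 3′ end of each polyadenylated transcript. There were 16 WT mice aged 58 to 61 days (8 males, 8 females) and 15 CYFIP1 OE mice aged 58 to 77 days (7 males, 8 females). By line, 8 WT and 7 CYFIP1 OE animals carried the label 1, and 8 WT and 8 CYFIP1 OE animals the label 3. The 4 mice aged 77 days were all CYFIP1 OE mice with the label 1. In the line labelled 1, most WT mice shared a single name group (mice with a common name prefix) that held no CYFIP1 OE mouse. Most CYFIP1 OE mice of that line came from name groups without WT mice. A genotype difference within that line can hardly be told apart from one between name groups, and not fully from age. Each line descends from its own transgenic founder, and WT littermates carry no BAC. An effect of the insertion site could act only in CYFIP1 OE mice. It cannot be told apart there from a genotype difference that depends on line. Left and right BLA punches were pooled within a mouse, and each mouse was 1 replicate. Mouse Cyfip1, which the human transgene leaves intact, averaged 33.5 ± 4.48 CPM in the 16 WT animals and 33.0 ± 3.66 CPM in the 15 CYFIP1 OE animals (SD), where CPM are counts divided by the library size after TMM scaling, and this row does not check the transgene.

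Ribosomes are built from ribosomal RNA and one copy of most ribosomal proteins, so cells have to make these proteins in matched amounts. The messages of ribosomal proteins begin with a short pyrimidine tract, the 5′ terminal oligopyrimidine (TOP) motif, through which mTOR signalling controls their translation. CYFIP1 binds FMRP and the cap-binding protein eIF4E and so belongs to a complex that represses translation of selected messages in neurons. Levels of messenger RNA, as measured here, do not report translation.

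RefSeq promoters of build GRCm38.p6 were found for 56 of the 76 members, and 47 of these had a single annotated start. In the window from 250 bases before to 50 bases after that start, a pyrimidine run of at least 8 bases covered the first transcribed base in 14 of the 47 members (29.8%), against 3.68% of 22862 promoters of symbols with a single start. The motif CCGGAAG, searched on both strands, was in 42.6% of members and 9.12% of all promoters. The motif TCTCGCGA was in 17.0% of members and 1.11% of all promoters, and GGGCGG was in 59.6% and 35.2%. TATAAA was in 10.6% of members and 14.8% of all promoters, and AAGATGGC was in 6.38% and 2.94%. None of these motifs contains another, and a match describes the window only. Stretches of 80 bases before and 20 bases from the annotated start are given for 6 members on which later results turn, 5′ to 3′ on the gene's own strand, with the pyrimidine run over the start in capitals where there is one.
Rpl27a, chr7:109519115-109519214, plus strand: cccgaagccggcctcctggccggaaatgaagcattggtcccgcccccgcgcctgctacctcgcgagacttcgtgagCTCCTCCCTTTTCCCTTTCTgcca
Rpl7a, chr2:26910727-26910826, plus strand: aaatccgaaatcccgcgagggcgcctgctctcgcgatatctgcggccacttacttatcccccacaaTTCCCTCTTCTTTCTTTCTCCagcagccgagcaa
Rpl35, chr2:39005112-39005211, minus strand: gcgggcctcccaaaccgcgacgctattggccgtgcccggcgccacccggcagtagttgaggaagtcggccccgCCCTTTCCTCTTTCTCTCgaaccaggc
Rps27, chr3:90213629-90213728, minus strand: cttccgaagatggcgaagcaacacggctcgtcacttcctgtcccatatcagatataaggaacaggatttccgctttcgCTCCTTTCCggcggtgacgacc
Rpl24, chr16:55966195-55966294, plus strand: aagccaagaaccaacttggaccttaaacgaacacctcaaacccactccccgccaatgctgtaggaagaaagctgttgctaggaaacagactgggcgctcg
Rpl12, chr2:32961632-32961731, plus strand: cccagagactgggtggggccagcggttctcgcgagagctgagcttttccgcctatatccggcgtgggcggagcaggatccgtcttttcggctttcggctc
Rpl27a, Rpl7a, Rpl35 and Rps27 had runs of 20, 21, 18 and 9 bases, whereas the annotated starts of Rpl24 and Rpl12 lie outside a pyrimidine run. In Rpl12 a pyrimidine run begins at the base directly after the annotated start.

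Total counts per mouse ranged from 5286708 to 8685308, of which the members held 86371 to 165884 reads, and no 2 files were identical. Xist and Ddx3y matched the sex label in 31 of 31 mice. Of the marker lists for BLA principal neurons, neighbouring striatum and choroid plexus, all but 1 striatal gene were measured, and their summed levels varied widely. The 6 principal neuron genes summed to 595 to 3653 CPM, with Camk2a the highest of them (median 700 CPM). The 7 striatal genes summed to 254 to 5915 CPM. The 4 choroid plexus genes summed to 19.5 to 8397 CPM, of which Ttr alone reached up to 8228 CPM. The cause of this spread was not tested. In such bulk tissue, fewer cells of a type and less RNA per cell cannot be told apart. CYFIP1 OE mouse 1, a male of the line labelled 3, stood apart from the others with a standardized connectivity (the summed correlation of its profile with all other mice, as a Z-score) of -4.74, whereas the other 30 mice lay between -1.18 and 1.07. The 4 most abundant features took 47.0% of its counts and 25.3 to 42.0% of the counts of the others. It had the highest principal neuron sum (3653 CPM), a striatal sum of 285 CPM and a choroid plexus sum of 4718 CPM. Its principal neuron sum came mostly from Camk2a (2350 CPM) and Slc17a7 (1109 CPM). Its levels of Neurod6, Rspo2, Etv1 and Cyp26b1 lay within the range of the other mice. The study's methods left out samples with such a Z-score under -2, a rule that would remove this mouse. It was kept in the values over 31 mice here, and values without it are given beside the results that turn on it.

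The members were among the most abundant messages of the tissue. Their mean levels ran from 8.46 to 1098 CPM with a median of 171 CPM, against 9.32 CPM for all tested genes, and 66 of the 76 lay in the top 10% of tested genes. QuantSeq gives about one read position per transcript, so these levels are not divided by length. The 5 highest were Rplp1, Rps14, Rps29, Rpl13a and Rps21. Rplp1, an acidic protein of the stalk that recruits elongation factors, was at 806, 1083 and 1405 CPM (lowest, median and highest mouse). Its partners in the stalk were lower, with Rplp2 at 448, 679 and 872 CPM and Rplp0, the base of the stalk, at 78.1, 117 and 159 CPM, and the ranges of Rplp0 and Rplp2 did not overlap. Rps14 reached 770 ± 139 CPM, Rps29 755 ± 99.6 CPM, Rpl13a 694 ± 128 CPM and Rps21 692 ± 106 CPM (SD, n = 31), and these 4 means differed by less than 1 SD of any of them. The 5 lowest were Rpl12 (8.46 ± 2.65 CPM), Rps27l (13.7 ± 4.08), Rps7 (15.1 ± 8.58), Rpl10a (35.5 ± 32.5) and Rpl28 (50.6 ± 22.3; SD, n = 31 for each). The members held 1.34 to 1.93% of all counts of a mouse.

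**Figure D1:**
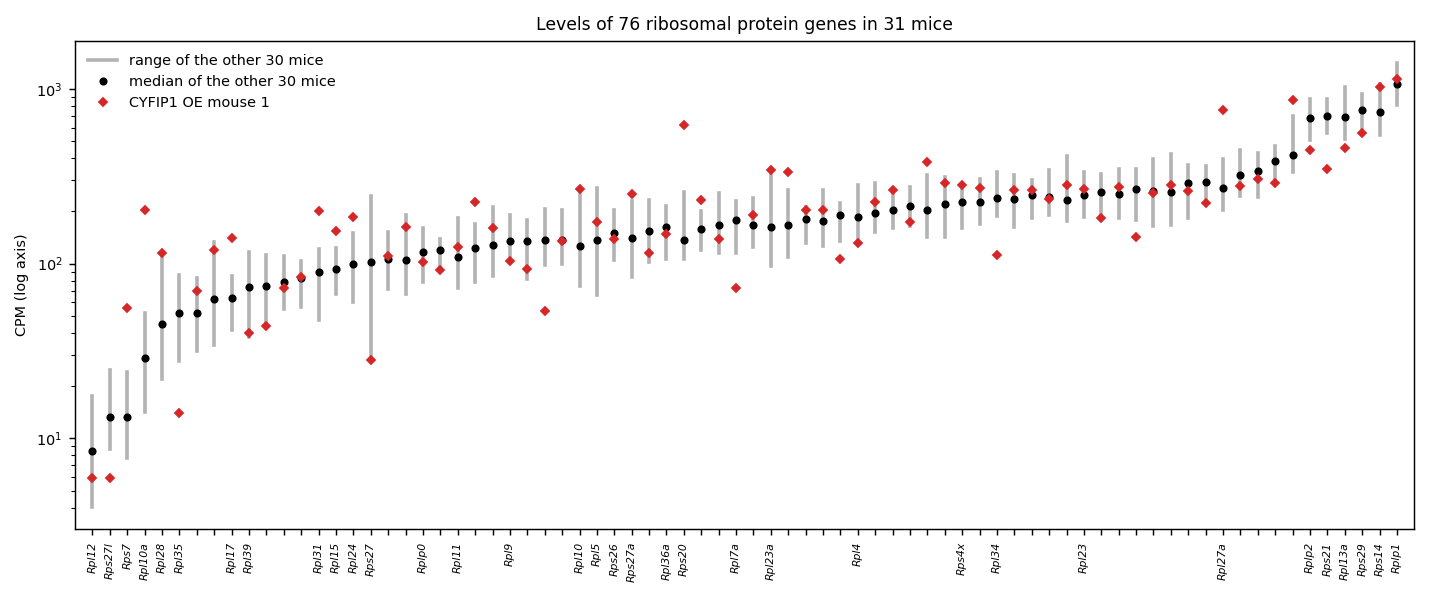
Levels of the 76 ribosomal protein genes in CPM on a log axis, ordered by their mean over 31 mice, with grey bars for the range and black points for the median of 30 mice and red diamonds for CYFIP1 OE mouse 1. The red diamonds are above the bars for 19 genes and below them for 18, and levels run from Rpl12 to Rplp1. Genes named in the text are labelled.

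Paralogs and genes that failed the filter were far below their relatives. Rps27l, a paralog of the small-subunit gene Rps27 that p53 can induce, was at 13.7 CPM beside 106 ± 52.2 CPM (SD, n = 31) for Rps27. Rps4x, the X-linked gene for a small-subunit protein, was at 159, 227 and 283 CPM. The other X-linked members were Rpl10 at 74.8, 129 and 266 CPM, Rpl36a at 106, 160 and 214 CPM and Rpl39 at 37.8, 73.3 and 117 CPM. Of the 4 genes below the filter, Rpl10l had 0 reads in all 31 mice, Rpl3l had at most 8 reads, and Rpl39l had at most 11 reads and 0 in 22 mice. These are paralogs known from testis or striated muscle. Rps12, a core protein of the small subunit, also had 0 reads in 31 of 31 mice, whereas the lowest members inside the filter, Rpl12 and Rps7, had 31 to 117 and 53 to 309 reads.

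Several members shared their 3′ ends with near-identical copies, mostly processed pseudogenes, and the deposited counts split between them. A copy was counted where the last 150 bases of a member's transcript matched another annotated transcript over at least 135 bases at 97% identity or more. By that rule 38 of the 76 members had a copy, 13 had over 10% of the joint reads on copies, and 7 had fewer reads than their copies. Rps12 had a mean of 2968 reads on its 18 copies, of which Rps12l1 held 2428. Rps7 kept 5.83% of the reads it shared with Gm6472, Rpl10a 16.2% of those shared with Rpl10a-ps1, Rpl35 31.8% of those shared with Gm2000 and Rps27 32.7% of those shared with Rps27rt. Pooled with their copies, Rps7 was at 251 ± 45.9 CPM in place of 15.1, and Rpl10a at 209 ± 27.7 CPM in place of 35.5 (SD, n = 31). The low levels of Rps7 and Rpl10a therefore belong to the deposited rows and not to the sums with their copies.

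The split was different in the mouse with the low connectivity. Rpl10a had 1132 reads there and its copy 0, so that the gene held 100% of the joint reads, against 8.06, 13.6 and 24.9% (lowest, median and highest) in the other 30 mice. Rpl10 held 99.9% in this mouse and 28.7 to 71.9% in the others, Rpl23 99.7% and 50.9 to 71.3%, and Rpl15 99.2% and 42.0 to 76.9%. Of the 13 members with over 10% of reads on copies, 9 had a higher own share in this mouse than in every other mouse. In 2 of the 13 the share was lower than in every other mouse, among them Rpl35, with 4.07% in this mouse and 12.6 to 51.6% in the others.

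**Figure D2:**
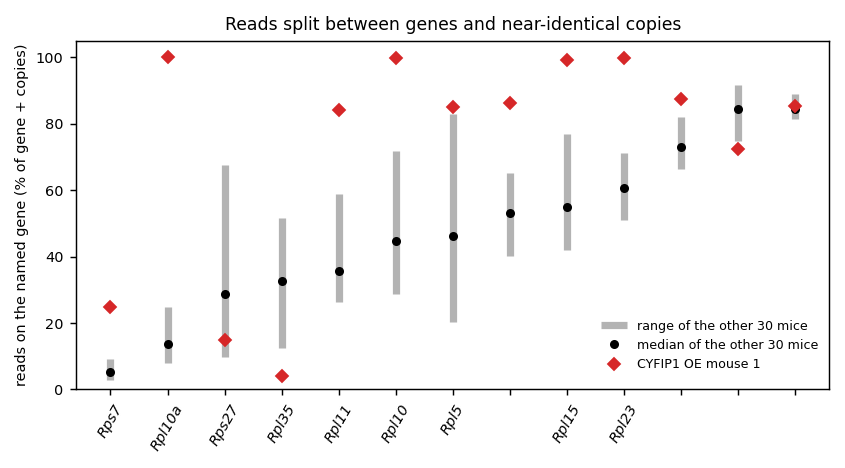
Share of reads on the named gene, as a percentage of the reads on the gene and its near-identical copies, for the 13 members with over 10% of joint reads on copies; grey bars give the range and black points the median of 30 mice, red diamonds CYFIP1 OE mouse 1. The red diamonds of 9 members lie above the bars, and for Rpl10a, Rpl10, Rpl23 and Rpl15 they lie between 99.2 and 100%. Members named in the text are labelled.

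Levels of the members varied together across mice. After sex and line were removed from log2 CPM, the median Pearson correlation over the 2850 pairs of members was 0.41, with 83.7% of pairs above 0, whereas all pairs of tested genes had a median of 0.00 and 5 to 95% limits of -0.39 and 0.40. Without the mouse with the low connectivity the median was 0.45 and 91.3% of pairs were above 0. Large-subunit members (median 0.37), small-subunit members (0.44) and pairs across the subunits (0.42) lay close together. Mitochondrial ribosomal protein genes, which serve a separate ribosome, had a median of 0.08 over 78 genes. The 7 ribosomal protein genes outside the symbol rule had a median of only 0.06 among themselves, and 17 elongation factors and other TOP messages 0.11. Some marker lists had higher medians than the members, such as 10 oligodendrocyte genes (0.92) and 7 striatal genes (0.96). These correlations share the libraries and their normalization and are given as a description. The pairs of all tested genes were not matched to the members in level, with median levels of 9.32 CPM for all tested genes and 171 CPM for members. Each member was also compared with all others by its mean correlation, which was above 0 for 74 of 76 members.

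The closest pairs were Rps20 with Rpl27a (r = 0.95 over 31 mice, 0.90 without the mouse with the low connectivity) and Rps21 with Rpl34 (r = 0.94 and 0.89). The order changed without that mouse, where the closest pair was Rps29 with Rps21, both of the small subunit (r = 0.94, and 0.87 over 31 mice). The members with the weakest mean correlation were Rpl35 (-0.03), Rpl7a (0.00) and Rpl12 (0.02), which became 0.04, 0.09 and 0.04 without that mouse. The first component of the members' residuals carried 40.2% of their variance and the second 23.2%, or 45.6 and 16.9% without that mouse. The second component set apart CYFIP1 OE mouse 1, in which 19 members were at their highest and 18 at their lowest of all 31 mice. Rpl27a was at 755 CPM there and at 202 to 396 CPM in the others, and Rps20 was at 623 CPM and at 106 to 256 CPM in the others. In the opposite direction Rpl7a was at 72.9 CPM and at 115 to 227 CPM in the others, and Rps21 was at 345 CPM and at 558 to 870 CPM in the others.

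**Figure D3:**
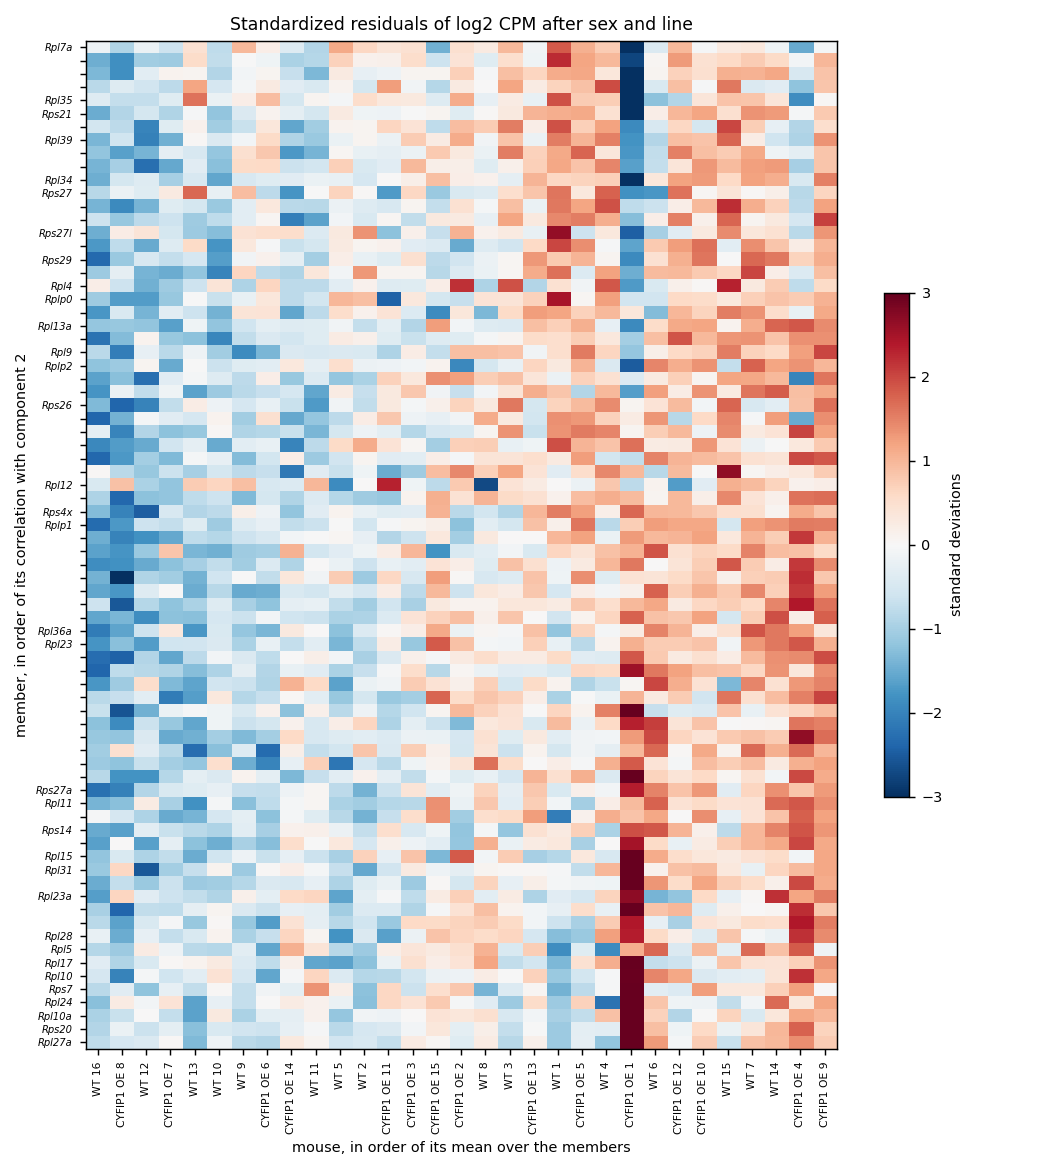
Log2 CPM with the effects of sex and line taken out, in standard deviations (blue low, red high), for 76 members (rows, ordered by their correlation with the second component) and 31 mice (columns, ordered by their mean over the members). Most rows change from blue to red from left to right, and CYFIP1 OE mouse 1 is dark blue for Rpl7a and Rps21 and dark red for Rpl27a and Rps20. Rows named in the text are labelled.

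The mean over the members, called the ribosomal score, followed other gene lists of the translation machinery and some cell type markers. Over 31 mice it correlated with the 7 ribosomal protein genes outside the symbol rule (r = 0.88, rho = 0.85), with 78 mitochondrial ribosomal protein genes (r = 0.82, rho = 0.79) and with 17 elongation factors and other TOP messages (r = 0.76, rho = 0.75). It followed 25 ribosome assembly factors (r = 0.21, rho = 0.21) and 13 genes of TOP translation control (r = 0.18, rho = 0.15) weakly. Among cell type lists, the score was closest to 8 microglial genes (r = 0.79, rho = 0.77), which held at 0.72 without the 2 farthest mice and at 0.72 in WT and 0.85 in CYFIP1 OE mice. It correlated at 0.52 with astrocyte and 0.47 with oligodendrocyte markers (rho 0.48 and 0.47), and at -0.36 with vascular markers (rho -0.28). In WT and CYFIP1 OE mice these were 0.33 and 0.75 for astrocyte, 0.37 and 0.68 for oligodendrocyte and -0.61 and -0.05 for vascular markers. Neuronal lists lay on both sides of 0, with -0.33 for general neuron, -0.13 for BLA principal neuron, 0.09 for striatal projection neuron, 0.14 for thalamic neuron and 0.33 for interneuron markers (rho -0.33, -0.14, 0.20, 0.16 and 0.43). With total counts the correlation was 0.48 (rho 0.50). The microglial genes summed to only 167 to 365 CPM, against 13122 to 20972 CPM for the members, and the part of cell mixture and of depth in the score was not tested. Members are also short, with a median transcript length of 704 bases against 2282 bases for other tested coding genes. Among those other genes, the correlation with the score fell with length, from a median of 0.09 in the shortest of 5 length groups (2734 genes) to -0.07 in the longest (2732 genes).

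The study asked whether CYFIP1 overexpression changes gene expression in the BLA, and for the ribosomal protein genes no difference passed adjustment over all genes. The summed level of the members was 13404, 16181 and 19465 CPM in WT mice (lowest, median and highest) and 13122, 16422 and 20972 CPM in CYFIP1 OE mice. The groups overlapped over most of their range. Within the line labelled 1 WT mice had a sum of 16715 ± 1155 CPM (SD, n = 8) and CYFIP1 OE mice of 17088 ± 2897 CPM (SD, n = 7), and within the line labelled 3 it was 15770 ± 2160 and 16903 ± 1519 CPM (SD, n = 8 each). As a share of raw counts, without TMM factors, WT mice had 1.69 ± 0.15% and CYFIP1 OE mice 1.62 ± 0.19% (SD), so the order of the groups turned with the scaling.

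**Figure D4:**
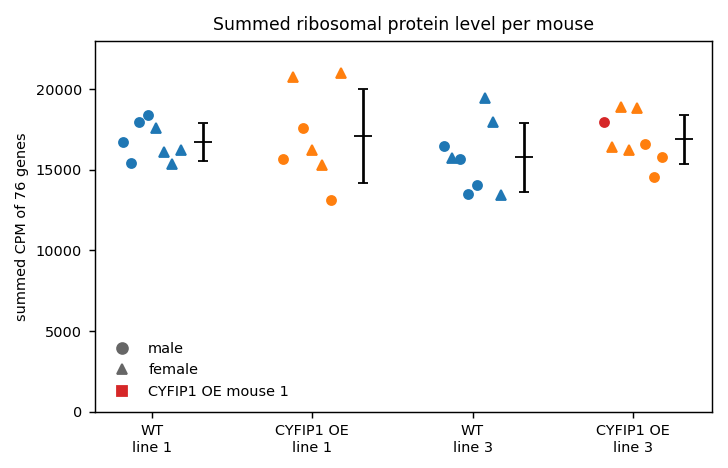
Summed CPM of the 76 members in each mouse by genotype and line (circles male, triangles female, red CYFIP1 OE mouse 1), with the mean and SD of each group as a bar beside it. The 4 groups overlap, with means between 15770 and 17088 CPM.

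In the edgeR quasi-likelihood test with sex and line as further terms, 1 member had an unadjusted p under 0.005, the threshold the study used, and that share of 76 stands beside 0.293% of all tested genes. At an unadjusted p under 0.05 there were 4 members, all higher in CYFIP1 OE mice, where 4.3% of all genes passed and 2.27% passed as higher. By edgeR 0 members had an adjusted p under 0.05, as was true of all 17428 genes (0% called), and by DESeq2 the count of members was also 0 at the adjusted threshold and 4 at an unadjusted p under 0.05. The log2 differences of the members ran from -0.36 to 0.48 with a median of 0.05, against -0.01 for all genes. With TMM normalization 55 members were higher and 21 lower in CYFIP1 OE mice, where 48.7% of all genes were higher, but with library totals 16 were higher and 60 lower. Library totals moved the median of all genes to -0.13, and relative to the median of all genes 56 members were higher with TMM and 57 with library totals. Members vary together across mice, so such counts do not rest on independent genes. The median was 0.06 in large-subunit and 0.04 in small-subunit members.

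Rpl24, a large-subunit protein that bridges the subunits, was the member with the smallest p. It was at 60.5, 90.9 and 149 CPM in WT and at 92.7, 107 and 184 CPM in CYFIP1 OE mice, and the WT mean of 92.0 CPM was exceeded in 15 of 15 CYFIP1 OE mice, although the ranges overlapped. Its log2 difference was 0.29 ± 0.10 (SE), with an unadjusted p of 0.00447 and an adjusted p of 0.999 in the edgeR test. Without CYFIP1 OE mouse 1, in which Rpl24 was highest, the difference was 0.23 ± 0.08 and the unadjusted edgeR p was 0.00934. Adding 5 surrogate variables as covariates gave a log2 difference of 0.17 for Rpl24 (unadjusted edgeR p = 0.0348). Taken by line, edgeR gave 0.19 (p = 0.107) for label 1 and 0.38 (p = 0.0255) for label 3.

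The other 3 members at an unadjusted p under 0.05 did not keep it without the same mouse. Rps20, a small-subunit protein, was at 106, 130 and 219 CPM in WT and at 119, 151 and 623 CPM in CYFIP1 OE mice, with a log2 difference of 0.40 ± 0.18 (SE), which became 0.16 without that mouse, where the edgeR p was 0.133. Rps7, which also binds the p53 regulator Mdm2, was at 7.72, 12.2 and 24.0 CPM in WT and at 10.1, 13.7 and 55.4 CPM in CYFIP1 OE mice, with a log2 difference of 0.47 ± 0.21, which became 0.23 without that mouse. Pooled with its copy Gm6472, the difference of Rps7 was 0.02 ± 0.09 (SE; edgeR p = 0.816). Rpl31, named here after its values were seen, had 0.28 ± 0.13 and 0.17 without that mouse. Without it 1 member, Rpl24, had an unadjusted p under 0.05, where 3.76% of all genes did.

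No member was lower in CYFIP1 OE mice at an unadjusted p under 0.05, where 2.04% of all genes were. The 3 smallest p in that direction belonged to Rpl7a, Rpl35 and Rps27. Rpl7a, a large-subunit protein, was at 150, 178 and 227 CPM in WT and at 72.9, 167 and 207 CPM in CYFIP1 OE mice, with a log2 difference of -0.18 ± 0.11 (SE). Rpl35 was at 32.8, 53.7 and 85.8 CPM in WT and at 13.98, 46.6 and 72.5 CPM in CYFIP1 OE mice, with a log2 difference of -0.24 ± 0.16, which turned to 0.14 ± 0.11 when its copy was pooled. The copy had 1837 reads in CYFIP1 OE mouse 1, its highest, against a mean of 830 over all mice. Pooled levels had an SD of 54.6 CPM in CYFIP1 OE and 21.3 CPM in WT mice. The pooled fit was not repeated without that mouse. Rps27 was at 41.5, 104 and 243 CPM in WT and at 28.1, 89.8 and 198 CPM in CYFIP1 OE mice, with a log2 difference of -0.36 ± 0.24, which was -0.04 ± 0.09 with its copy pooled. The lowest value of each of the 3 genes was in CYFIP1 OE mouse 1, and without it the log2 differences were -0.12 for Rpl7a, -0.16 for Rpl35 and -0.28 for Rps27.

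The lines were compared next, as line 3 minus line 1 with genotype and sex in the model. No member had an unadjusted p under 0.005, where 0.189% of all genes did, and 4 had an unadjusted p under 0.05 against 3.31% of all genes, while 0 passed adjustment by edgeR or DESeq2 (0% of all genes by edgeR). The median log2 difference of the members was -0.06, against 0.01 for all genes, and 58 members were lower in line 3, as were 48.2% of all genes. With 5 surrogate variables in the model the median was 0.00 and 37 were lower. With single name groups left out in turn, the median lay between -0.14 (64 lower) and -0.02 (46 lower). Each name group lay within a single line, so line cannot be told apart from name group, nor fully from age. In WT mice alone the median was -0.08 (0.01 for all genes), and in CYFIP1 OE mice alone -0.02 (-0.01 for all genes). Because members vary together across mice, counts of members lower or higher are not counts of independent genes. Rpl9 and Rps26 were among those lower and Rpl17 was higher at an unadjusted p under 0.05, where 1.64% of all genes were lower and 1.67% higher. Rpl9, a large-subunit protein, was at 106, 141 and 189 CPM in line 1 and at 104, 125 and 160 CPM in line 3, with a log2 difference of -0.17 ± 0.07 (SE), and 12 of 16 line 3 mice were under the line 1 mean. Rps26, which lies at the messenger RNA exit of the small subunit, had -0.17 ± 0.08. Rpl17, which lines the peptide exit tunnel, had 0.24 ± 0.11 in the higher direction and 0.15 without CYFIP1 OE mouse 1, where its edgeR p was 0.105. The next smallest p in that direction belonged to Rpl23a (0.22 ± 0.14) and Rpl24 (0.12 ± 0.10), which had 0.13 and 0.06 without that mouse.

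The genotype difference was not shown to depend on line for any member. In the interaction of genotype and line, 0 members had an unadjusted p under 0.05, where 8.1% of all genes did, and 0 had an adjusted p under 0.05 in edgeR and in DESeq2. By DESeq2 2 members had an unadjusted p under 0.05, where 8.66% of all genes did. The smallest unadjusted edgeR p was 0.0504, for Rps27l, whose genotype difference was 0.14 in line 1 and -0.44 in line 3. Rps27l was lowest of all mice in CYFIP1 OE mouse 1 (5.91 CPM) and highest in WT mouse 1 (24.8 CPM), both of line 3. Rpl5, which with Rpl11 carries 5S ribosomal RNA into the ribosome, went from -0.15 to 0.47, Rps27a, which is made as a fusion to ubiquitin, from -0.09 to 0.39, and Rps7 from 0.06 to 0.81. Rpl5 kept 47.1% of the reads it shared with its copies, and 20.2 to 85.1% in single mice. Pooled with them, its genotype difference over both lines was 0.004 ± 0.074 (SE). In the lower direction Rpl35 went from 0.03 to -0.52 and Rpl4 from 0.08 to -0.26. The line labelled 3 is the line of the mouse with the low connectivity, and without that mouse the interaction p of Rps7 was 0.237 and that of Rpl5 was 0.0711 in edgeR. Within line 1 alone 0 members had an unadjusted edgeR p under 0.05, where 5.58% of all genes did. In that line genotype and name group largely coincide. Within line 3 alone 10 members did, where 6.32% of all genes did, but without CYFIP1 OE mouse 1 there were 4 members, where 8.5% of all genes passed.

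The members were compared between the sexes because sex was a term of the study's model. As female minus male, 69 of 76 members were higher in females, where 46.6% of all genes were, with a median log2 difference of 0.11 against -0.02 for all genes. Because the members vary together across mice, a shared shift is counted many times in such a number. Their summed level was 15958 ± 1649 CPM in males (SD, n = 15) and 17209 ± 2103 CPM in females (SD, n = 16), and the groups overlapped. At an unadjusted p under 0.005 there was 1 member (0.436% of all genes), and at an unadjusted p under 0.05 there were 8, all higher in females, where 1.6% of all genes were higher at that threshold. By edgeR 0 members passed adjustment, whereas 11 of all genes did (0.0631%), and by DESeq2 0 members did with 8 at an unadjusted p under 0.05. Without CYFIP1 OE mouse 1, a male, 75 members were higher in females (49.2% of all genes), 14 were higher at an unadjusted p under 0.05 (1.86%), and 3 had one under 0.005 (0.436%). The mitochondrial share of counts, 7.61 ± 1.18% in males and 8.30 ± 0.88% in females (SD, n = 15 and 16), was also higher in females, and its part in the difference was not tested.

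Rpl9 was the member with the smallest sex p, at 104, 124 and 155 CPM in males and at 124, 143 and 189 CPM in females, and 15 of 16 females were above the male mean. Its log2 difference was 0.22 ± 0.07 (SE), with an unadjusted edgeR p of 0.00358 and an adjusted p of 0.970. Among X-linked members, Rpl39 was at 37.8, 62.3 and 93.5 CPM in males and at 55.6, 79.0 and 117 CPM in females (0.31 ± 0.13), and Rpl36a had a log2 difference of 0.20 ± 0.09. Rpl10 had 0.24 ± 0.14, which became 0.36 ± 0.12 without CYFIP1 OE mouse 1, where its edgeR p was 0.00472, and Rps4x had 0.02 ± 0.08. The Rpl10 row kept 47.2% of the reads it shared with its copies, and 28.7 to 71.9% in single mice other than CYFIP1 OE mouse 1. The third member under 0.005 without that mouse was Rpl15 (0.25 ± 0.08), which was named after its values were seen and shares its reads with copies.

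**Figure D5:**
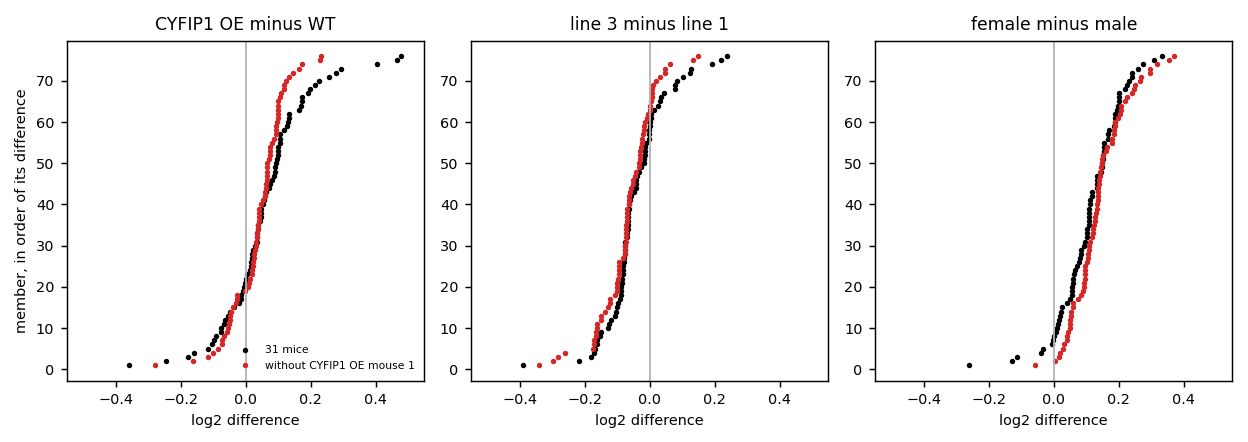
Log2 differences of the 76 members, each set sorted from lowest to highest, for CYFIP1 OE minus WT, line 3 minus line 1 and female minus male, in all 31 mice (black) and without CYFIP1 OE mouse 1 (red). The genotype medians are 0.05 and 0.04, and the ends of the black genotype curve, from -0.36 to 0.48, draw in to -0.28 and 0.23 without that mouse.

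Other genes of the pathway were read in the same genotype test, in which 2.27% of all genes were higher and 2.04% lower at an unadjusted p under 0.05. Of the 7 ribosomal protein genes outside the symbol rule, 1 had an unadjusted p under 0.05, Fau, whose product is a small-subunit protein fused to a ubiquitin-like domain. Fau had a log2 difference of 0.59 ± 0.23 (SE) and was at 252 CPM in CYFIP1 OE mouse 1 and at most 62.1 CPM in the others. Without that mouse its difference was 0.22 (edgeR p = 0.0583). Of 17 elongation factors and other TOP messages, 0 had an unadjusted p under 0.05 in edgeR and 0 an adjusted one, with Eef2 at 0.13 ± 0.09 and Eif3e at -0.13 ± 0.10. Of 25 ribosome assembly factors, 1 was higher and 1 lower at that unadjusted threshold, namely Polr1b, a subunit of RNA polymerase I, at 0.62 ± 0.24, and Rrp9 at -0.34 ± 0.13. Of 13 genes of TOP translation control, 0 had an unadjusted edgeR p under 0.05 and 0 an adjusted one, with Larp4 at 0.13 ± 0.08 and Akt1s1 at 0.36 ± 0.27, which was 0.17 without CYFIP1 OE mouse 1. The 4 genes of CYFIP1 and its partners gave 0 at an unadjusted p under 0.05 as well, including Eif4e at 0.05 ± 0.07 and Fmr1 at -0.05 ± 0.11. Of 78 mitochondrial ribosomal protein genes, 5 were higher and 1 lower at an unadjusted p under 0.05, with Mrps34 at 0.32 ± 0.11 and Mrps31 at -0.50 ± 0.17, and 0 had an adjusted p under 0.05.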

How the data were processed

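RNA of pooled left and right BLA from 16 WT and 15 CYFIP1 OE mice was read by QuantSeq. STAR mapping to GRCm38, Salmon quantification and quality metrics from Picard and MultiQC were run by the authors, who deposited 1 table of expected counts (estimated counts with decimals, not normalized) per mouse. The versions of these tools are not given in the sources used here. Symbols and gene types came from GENCODE M21 on GRCm38.

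Counts were rounded, and the 17428 genes that reached 10 reads in 7 or more mice were kept. edgeR 4.0.16 in R 4.3.3 was used with TMM factors, the terms sex, line and genotype, and a two-sided quasi-likelihood F test with Benjamini-Hochberg adjustment over all tested genes. Values in CPM are TMM-normalized, and log2 CPM for correlations used a prior count of 2. The authors' model also held 5 sequencing components, for which 5 surrogate variables from sva 3.50.0 stood in as an alternative, and DESeq2 1.42.0 was another. Copies were searched with BLAST. Of these steps, only the genotype term of the edgeR fit was tested on simulated counts. Genes were drawn independently there, with larger changes than those reported for the members. Total counts of 5286708 to 8685308 per mouse limit precision for members with few reads. Labels give sex, line, genotype and age. That mice with a shared name prefix (10 name groups) are litters is not stated in the sources used here, and they entered alternatives only.

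The members and gene lists were chosen with earlier results of these data known. Members named singly were the 5 highest and 5 lowest by mean CPM, the 3 smallest p in each direction for genotype, line and interaction, X-linked members, stalk genes, paralogs, the 2 closest pairs, the 3 with the weakest mean correlation, every member called at an adjusted p under 0.05 (0 here) and genes failing the filter. Of the other lists, the 2 smallest genotype p were named. Some members that this rule selects are not reported here, and figures label only members named in the text.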

Additional observations from a re-analysis of the deposited data

Results flagged for a closer look

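Within the 4 groups of genotype and line, each with 7 or 8 mice, the highest or lowest mouse was compared with the rest of its group by Dixon's test at the 95% level, for the summed level and 31 members named singly, 128 comparisons in all. In 22 of them 1 mouse stood apart. Chance flags about 1 in 20 single groups, but these members vary together and several were named for extreme values, so that rate is no baseline for the 22. The summed level gave 0 of them. CYFIP1 OE mouse 1, the mouse with the low connectivity, accounted for 9, in the line 3 CYFIP1 OE group, for Rps20 (623 against 138 to 192 CPM), Rpl28 (114 against 25.7 to 63.6 CPM), Rpl10a (203 against 19.6 to 36.7 CPM), Rpl27a (755 against 253 to 364 CPM), Rpl23a (341 against 131 to 219 CPM), Rps7 (55.4 against 10.1 to 20.9 CPM), Rpl17 (140 against 60.8 to 78.9 CPM), Rpl35 (14 against 35.2 to 53.6 CPM) and Rpl24 (184 against 104 to 121 CPM). It was the lowest of its group for Rpl35 and the highest for the other 8. WT mouse 14, a female of line 3 with a connectivity Z-score of 0.23, was the highest of the line 3 WT group for Rps27a (228 against 96.4 to 152 CPM), Rps14 (1028 against 609 to 775 CPM), Rplp2 (813 against 590 to 678 CPM), Rps20 (219 against 106 to 149 CPM), Rpl27a (385 against 210 to 269 CPM), Rpl23a (331 against 121 to 180 CPM), Rpl13a (929 against 515 to 707 CPM) and Rpl24 (149 against 74 to 99.5 CPM). Mice that stood apart for a single member were WT mouse 4 for Rpl4 (264 against 168 to 212 CPM), CYFIP1 OE mouse 11 for Rpl12 (17.4 against 5.6 to 8.75 CPM), WT mouse 8 for Rpl9 (168 against 125 to 145 CPM), CYFIP1 OE mouse 4 for Rpl5 (271 against 85.8 to 144 CPM), CYFIP1 OE mouse 9 for Rpl34 (335 against 200 to 249 CPM). The cause was not tested.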

How the results depend on the processing

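The 1 member with an unadjusted genotype p under 0.005, Rpl24, was kept with DESeq2, DESeq2 size factors, TMM without the members, 10 reads in every mouse and copies pooled, and its log2 difference lay between 0.17 and 0.38 in all alternatives. The count was 0 with 5 surrogate variables, age as a covariate, library totals, no filter on low counts, either line alone, line 3 without the mouse with the low connectivity, name groups with both genotypes, without mice aged 77 days and without the mouse with the low connectivity, and 0 to 1 with each name group left out in turn, 7 of 10 of which gave 0. The line count was 0 to 1 over the same leave-outs, and the 1 came without WT mouse 14 and the other mice of its name group. The sex count was 6 with surrogate variables, 0 with library totals, 0 without a filter and 3 without the mouse with the low connectivity, against 1, where 137, 77, 409 and 76 of all genes passed, against 76. At an adjusted p under 0.05, 0 members passed in every alternative of the 4 comparisons. The median interaction of the members was -0.085 with surrogate variables, against 0.099. Single members changed sign for Rpl35 in the genotype difference (0.14 with copies pooled, 0.032 in line 1 alone), for Rps7 (-0.040) and Rpl35 (0.016) in the interaction with copies pooled, and for Rps4x between the sexes with library totals (-0.013). The median correlation between members stayed between 0.25 (sex and name group removed) and 0.48 (WT mice alone), and a mean of 1.65% of raw counts stood beside 1.66% of TMM-normalized counts. Pooling copies, leaving out name groups and the fit of line 3 without that mouse were chosen after seeing the data. The causes were not tested. Replicate numbers were given in accession order and pair no mice. The fit on name groups with both genotypes, with name group as a term, held 18 mice of 5 groups and gave 5 members at an unadjusted p under 0.05, where 4.48% of all genes passed. Depth limits Rpl12, Rps27l and Rps7, the members with the fewest reads.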
